A study of Drosophila melanogaster with 2 samples.

Results

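The nuclear genes of oxidative phosphorylation encode the subunits of the mitochondrial respiratory chain and of ATP synthase. They were taken here as the protein-coding genes on chromosome arms 2L, 2R, 3L and 3R and chromosomes 4 and X whose symbols begin with ND-, Sdh, UQCR-, COX4 to COX8 or ATPsyn. This gave 88 of the 13945 protein-coding genes on these chromosomes. By symbol, 64 were main copies and 24 were like copies, that is, paralogs named after a main subunit with the ending L. The symbols of 20 like copies extend that of another gene, and the other 4 belong to main copies of another name: ATPsynepsilonL to sun, COX6AL and COX6AL2 to levy, and COX6CL to cype.

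Complex I (ND genes) takes electrons from NADH, complex II (Sdh genes) from succinate, complex III (UQCR genes) passes them to cytochrome c, complex IV (COX genes) reduces oxygen, and complex V (ATPsyn genes) uses the proton gradient to make ATP. Most of the subunits are encoded in the nucleus and imported, while the mitochondrial genome supplies the remainder. In Drosophila many of these genes have duplicates that are known to be expressed mainly in the testis. Expression was not measured in these samples, so the division into main and like copies rests on names alone.

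The data are peak lists from chromatin immunoprecipitation and sequencing of the Nemo protein in Drosophila melanogaster. Nemo, encoded by nmo, is a protein kinase with roles in Wnt signalling and planar cell polarity. The samples form 1 group of 2 biological replicates, numbered 2 and 3, each from embryos of both sexes aged 0 to 24 h. The strain, nmo-GFP, is 1 transgenic line in which nmo carries GFP at its C-terminus, and the antibody was directed against GFP. Chromatin was sonicated to fragments of 200 to 800 bp. Whole embryos mix all cell types and stages, so a peak in few cells and a weak peak in many cells cannot be told apart. No untagged strain, mock precipitation or input was analysed here, so there is no control level to set beside the values, and read depth was unknown.

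Each replicate and the pool of both had a list of 30000 peaks. A further list of 9299 peaks had been cut at an irreproducible discovery rate (IDR), a score of how well peaks repeat between replicates. A gene was counted when at least 1 of its transcription start sites had a summit within 1000 bp. Strength is the signal value of the peak caller, which can be compared only within a list. It ran from 166 to 7478 with a median of 333 in the IDR list, whose peaks are the strongest of the pooled list. Rank 1 is the strongest peak of a list. Summit positions are in bp from the nearest start site of the gene, negative upstream.

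The sequence under 5 summits of main copies is shown first, to let the stronger peaks of these genes be read beside their values. Their signals ran from 748 at COX7B to 1210 at ND-ASHI, moderate beside the 7478 of the strongest IDR peak. The strongest peak of these genes, 1734 at ND-MWFE, is not among the windows shown. Each line gives the 60 bp on either side of the summit in assembly dm6, 5' to 3' on the gene's strand. Capitals mark TATAAA or TTANNTAA on either strand.
ND-ASHI, chrX:6679325-6679445, minus strand: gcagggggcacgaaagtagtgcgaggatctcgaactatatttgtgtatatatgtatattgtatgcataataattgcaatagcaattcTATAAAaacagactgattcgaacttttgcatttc
ND-SGDH, chr3L:12138562-12138682, minus strand: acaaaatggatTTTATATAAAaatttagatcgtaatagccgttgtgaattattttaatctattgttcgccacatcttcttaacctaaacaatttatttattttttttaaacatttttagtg
ND-51, chr2L:6062778-6062898, minus strand: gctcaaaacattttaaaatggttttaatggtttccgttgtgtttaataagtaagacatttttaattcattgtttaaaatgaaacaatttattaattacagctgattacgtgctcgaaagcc
ND-42, chr3R:22027518-22027638, plus strand: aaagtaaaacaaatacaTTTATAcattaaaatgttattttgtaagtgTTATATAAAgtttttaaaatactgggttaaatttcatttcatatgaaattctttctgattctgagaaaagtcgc
COX7B, chr3L:17425292-17425412, plus strand: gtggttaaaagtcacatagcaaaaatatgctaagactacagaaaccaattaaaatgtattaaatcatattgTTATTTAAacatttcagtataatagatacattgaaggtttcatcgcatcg
The window at ND-51 held none of the 6 sequences searched. The window at ND-ASHI held TATAAA. The windows at ND-SGDH and ND-42 held overlapping matches of TATAAA and TTANNTAA, and that at COX7B held TTANNTAA alone.

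Main copies had Nemo peaks at their starts more often than protein-coding genes as a whole, and like copies less often. Of the 88 genes, 56 (63.6%) had an IDR summit within 1000 bp, beside 43.9% of all protein-coding genes. The split by name was wide: 54 of the 64 main copies (84.4%) had one, and 2 of the 24 like copies (8.33%). For cytoplasmic ribosomal protein genes the count was 81 of 85 (95.3%), and for mitochondrial ribosomal protein genes 54 of 73 (74.0%). These are counts of genes in 1 set of peaks, given without a test.

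The same order held in the longer lists. In the pooled list 63 main copies (98.4%) and 8 like copies (33.3%) had a summit, beside 61.9% of all protein-coding genes. In the whole list of replicate 2 the counts were 63 and 9, with 62.3% of all genes, and in that of replicate 3 they were 61 and 6, with 61.2%. With the 9299 strongest peaks of each replicate taken alone, 51 main copies had a summit in each case. Like copies then numbered 3 in replicate 2 and 2 in replicate 3, and all genes stood at 44.8% and 42.3%. Of the like copies 14 had no summit in any of the lists, and of the main copies 1, ND-49. This was not counted over all genes. In the pooled list alone 16 like copies, 1 main copy and 5315 of all 13945 protein-coding genes had none.

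Other ways of assigning peaks gave the same order. Within 500 bp 55 of the 88 genes had an IDR summit, beside 39.9% of all protein-coding genes, and within 250 bp 53, beside 33.9%. With the 5'-most start of each gene alone the count was 54, beside 42.0%, and where the peak itself had to contain a start it was 49, beside 28.6%. With pooled peaks of q up to 0.05 it was 70, beside 53.8%.

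**Figure D1:**
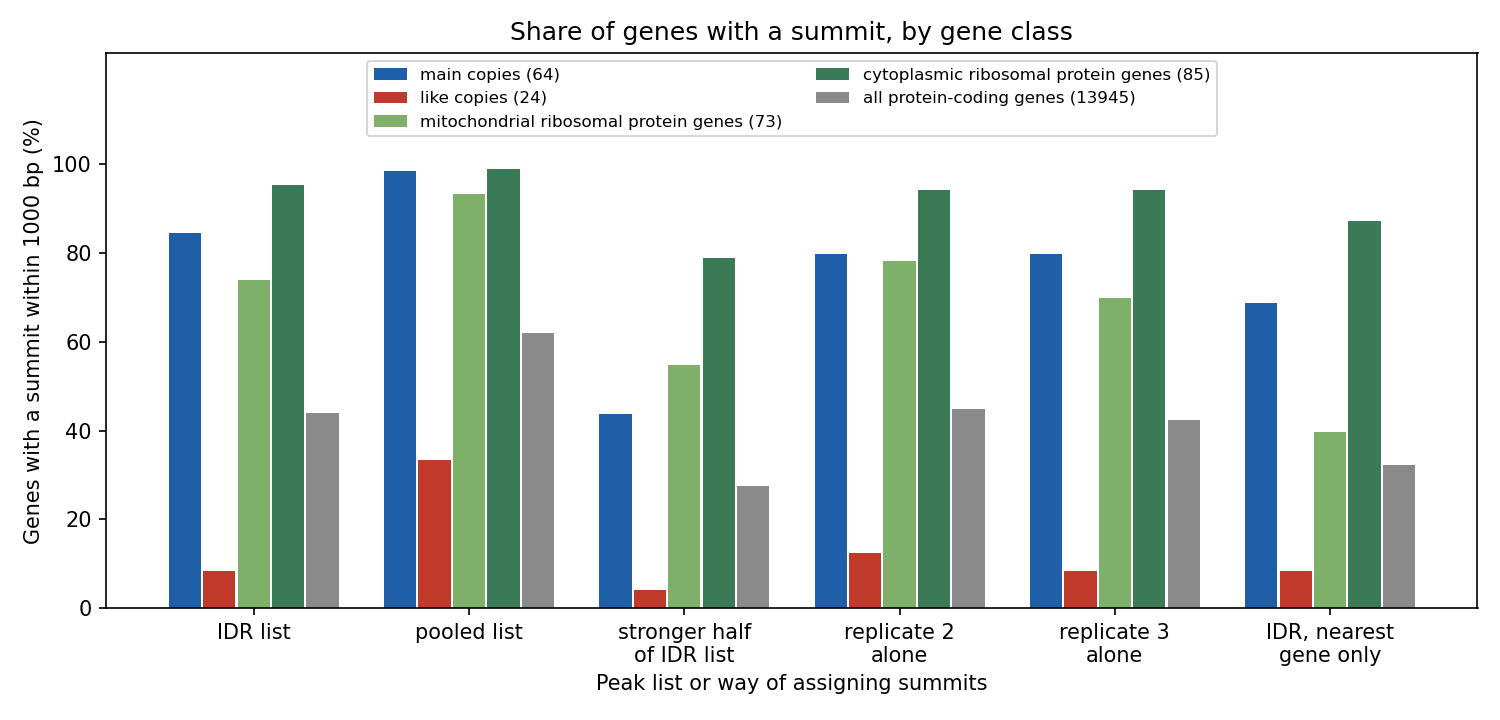
Share of genes, in percent, with a summit within 1000 bp of a start site, by gene class and by peak list or way of assigning summits; bars are single shares with the number of genes per class in the key, the bars for replicates use the 9299 strongest peaks of that replicate, and the third group of bars counts only the IDR peaks above the list's median signal. Main copies stand at 84.4% and like copies at 8.33% in the IDR list, with all protein-coding genes at 43.9% between them.

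Peaks at these genes were frequent but mostly of moderate strength. The strongest summits of the 56 genes had signal values from 174 to 1734, with a median of 338 and quartiles of 238 and 505. Over all protein-coding genes with an IDR summit the median was 407 with quartiles of 271 and 669, over mitochondrial ribosomal protein genes 455, and over cytoplasmic ribosomal protein genes 556. These medians cover only genes that passed the IDR threshold. With only the IDR peaks above the list's median signal the count was 29 of 88 (33.0%), 28 of them main copies (43.8% of 64), beside 27.6% of all genes. Of these genes ND-MWFE and ND-ASHI reached the 1000 strongest IDR peaks, a cut at which the share of all genes was not counted.

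Complex I, the NADH dehydrogenase, held the strongest peaks of these genes but had a low median. Of its 34 main copies 28 had an IDR summit, with a median signal of 283. ND-MWFE (FBgn0085468, 2R, 13158666 to 13160190, plus strand) encodes a small accessory subunit of the membrane arm. Its peak had a signal of 1734 and rank 271, with 492 and rank 412 in replicate 2 and 1235 and rank 231 in replicate 3. The summit lay at -177, 44 bp from a start of TppII, a peptidase gene that runs the other way from 221 bp upstream.

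ND-ASHI (FBgn0029888, X, 6677262 to 6679118, minus strand), another accessory subunit gene, shared its peak with Fum1, which encodes the fumarase of the citrate cycle. The signal was 1210 at rank 589, with 423 and rank 572 in replicate 2 and 793 and rank 603 in replicate 3. A second, weaker IDR summit of 331 lay at 16 bp from an ND-ASHI start. ND-SGDH, an accessory subunit gene, had a signal of 894 at -38, with 323 (rank 957) in replicate 2 and 574 (rank 1055) in replicate 3. ND-51, the gene of the flavoprotein that accepts electrons from NADH, had 875 at -81, with 291 (rank 1156) and 577 (rank 1047). All 4 ranked among the first 1156 peaks of both replicates.

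Other core subunits of complex I differed in strength. ND-24 and ND-23, which carry iron-sulfur clusters, had signals of 708 and 662, ND-20 had 360, ND-30 had 324, and ND-75, the largest subunit, had 207 at -753, nearer to CG1632, and 188 at -69. ND-49, which lies by the quinone site, was the exception. It is on chromosome 4 (568296 to 571554, minus strand) and had no summit in any list. The nearest IDR summit to ND-49 lay over 20 kb away. None of the 10 alternative settings gave it a summit.

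The other 5 main copies of complex I without an IDR summit all had a weaker pooled summit close to the start, and all encode accessory subunits. The pooled signal was 135 at -2 for ND-19, 126 at 19 for ND-B16.6, 112 at 29 for ND-B14, 112 at -24 for ND-B14.7 and 81.0 at -18 for ND-B12. These values lie under the weakest IDR peak, 166. In replicate 3 ND-B12 had no summit, while replicate 2 gave it 62.1 at rank 10520.

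**Figure D2:**
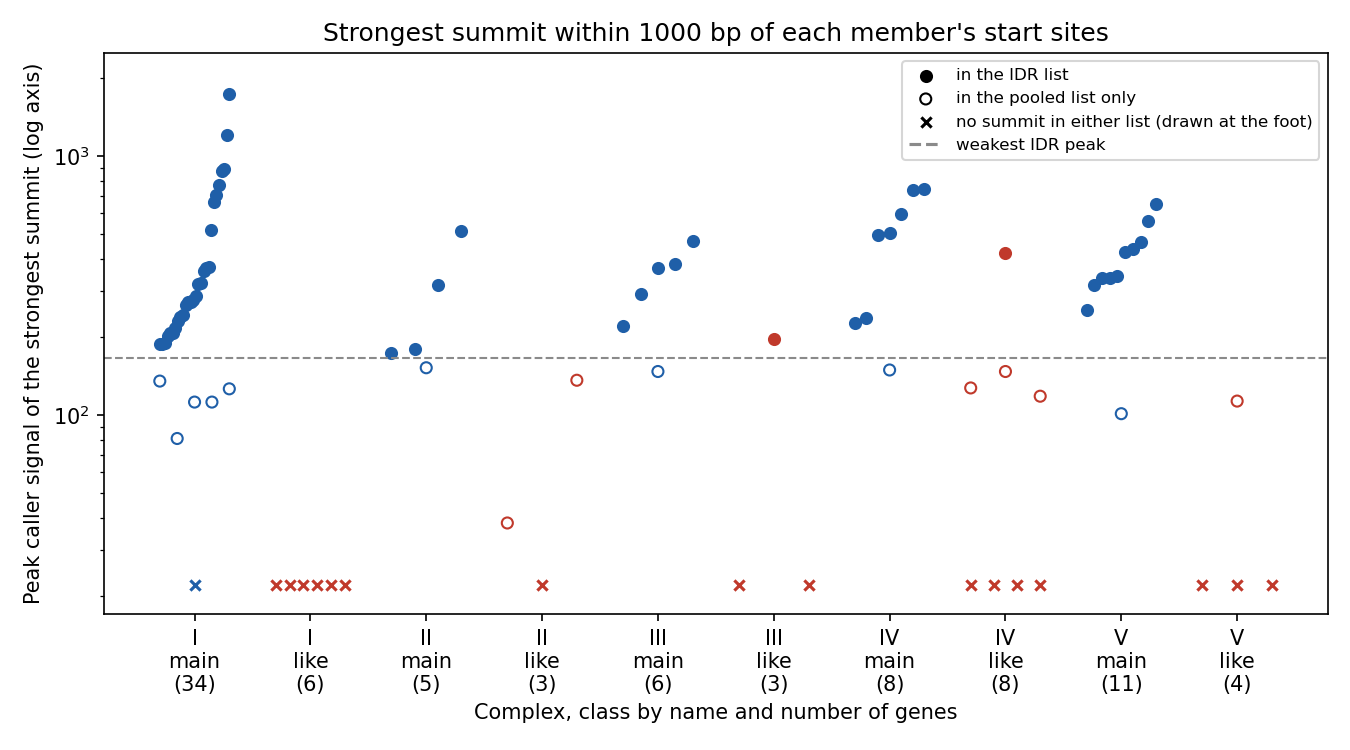
Signal value of the strongest summit of each of the 88 genes on a log axis, by complex and class; filled points are IDR peaks, open points are peaks of the pooled list only, crosses at the foot mark genes with no summit in either list, and the dashed line is the weakest IDR peak. The 9 open points of main copies lie between 81.0 and 152, and all 6 like copies of complex I are crosses.

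Complex II, succinate dehydrogenase, had IDR summits at its 4 subunit genes but not at the gene of an assembly factor. SdhC, a membrane anchor, had the strongest, 513 at -181, with 205 (rank 2192) in replicate 2 and 303 (rank 2880) in replicate 3. It shares its upstream region with Tctp. The flavoprotein gene SdhA had 317, but that summit, at -875, was 74 bp from a start of cer, and its own closest summit was weaker, 243 at -187. SdhB, the iron-sulfur subunit gene, had 179 at -19, and SdhD, the other anchor, 174 at 24, the weakest IDR peak of any of the 88 genes.

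Both weak peaks of complex II rested more on 1 replicate. In replicate 3 SdhB and SdhD ranked 8533 and 8531, and in replicate 2 they ranked 9847 and 9790, beyond the 9299 strongest. Sdhaf3, whose product helps to mature the iron-sulfur subunit, had a pooled summit of 152 at -2, the strongest of any gene here that missed the IDR list. SdhD at 174 and Sdhaf3 at 152 thus stand just inside and just outside that list.

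In complex III, which moves electrons from ubiquinol to cytochrome c, 5 of 6 main copies had an IDR summit, all within 100 bp of a start. UQCR-11 had 471 at -86, UQCR-14 had 382 at -12, UQCR-Q had 369 at -25, and the core protein gene UQCR-C2 had 292 at -19. UQCR-11 differed between replicates, with 71.1 at rank 9311 in replicate 2 and 384 at rank 2010 in replicate 3. The values of UQCR-14 were closer in rank, 149 at rank 3793 and 228 at rank 4198. UQCR-6.4, a small subunit gene, missed the IDR list with a pooled summit of 147 at -40.

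Complex IV, cytochrome c oxidase, had the highest median of the main copies, 503 over 7 of its 8. COX7B had 748 at -125, with 317 (rank 979) in replicate 2 and 430 (rank 1687) in replicate 3. COX5A had 738 at 115, with 260 (rank 1416) and 478 (rank 1411), and that summit was 54 bp from a start of its neighbour glo. COX8 had 599 at -95 with 191 (rank 2459) in replicate 2 and no overlapping peak in replicate 3. COX5B had 503 at -201, with 187 (rank 2532) and 320 (rank 2681), and that summit was 97 bp from a start of IFT52. The subunits with the strong peaks are small nuclear-encoded proteins around the catalytic core. COX7C had only a pooled summit, 149 at 389.

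In complex V, ATP synthase, 10 of 11 main copies had an IDR summit, with a median of 384. ATPsynF, a membrane subunit gene, had 652 at -27, with 258 (rank 1446) in replicate 2 and 381 (rank 2038) in replicate 3. ATPsynE, also a membrane subunit gene, had 560 at 830, 153 bp from a start of spn-B, and a summit of 535 at 4 bp from its own start. ATPsynCF6, a stalk subunit gene, had 465 at -191, with 165 (rank 3150) and 299 (rank 2926), and that summit was 23 bp from a start of Sec13. ATPsynC, the gene of the rotating ring subunit, had 438 at -51, with 162 (rank 3271) and 300 (rank 2916). The catalytic subunit gene ATPsynbeta had 316 at -451, nearer to CG11076, and ATPsyndelta, a rotor subunit gene, had only a pooled summit of 101 at -33.

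The IDR list holds the strongest peaks of the pool of these same replicates, and a peak in it need not have been called in each replicate. The likeness of ranks among its peaks was in part fixed by that choice, and the values here are a description. Of the 56 peaks 54 were overlapped by a peak in both replicates, and the exceptions, COX8 and the SdhA peak near cer, lacked one in replicate 3. Ranks lay within 9299 in both replicates for 46. Over the 54 genes the ranks had a Spearman's rho of 0.74, a description across genes of lists that were both called with 1 further common file. Summits of the replicates lay a median of 23.5 bp apart. A few ranks lay far apart. ND-AGGG, a complex I accessory subunit gene, had 41.3 at rank 15103 in replicate 2 and 275 at rank 3289 in replicate 3. The peak of ND-B14.5B, another accessory subunit gene, had 29.2 at rank 20401 and 145 at rank 6745, and its summits were 215 bp apart, the largest distance. That peak lies at 836 and nearer to toc.

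**Figure D3:**
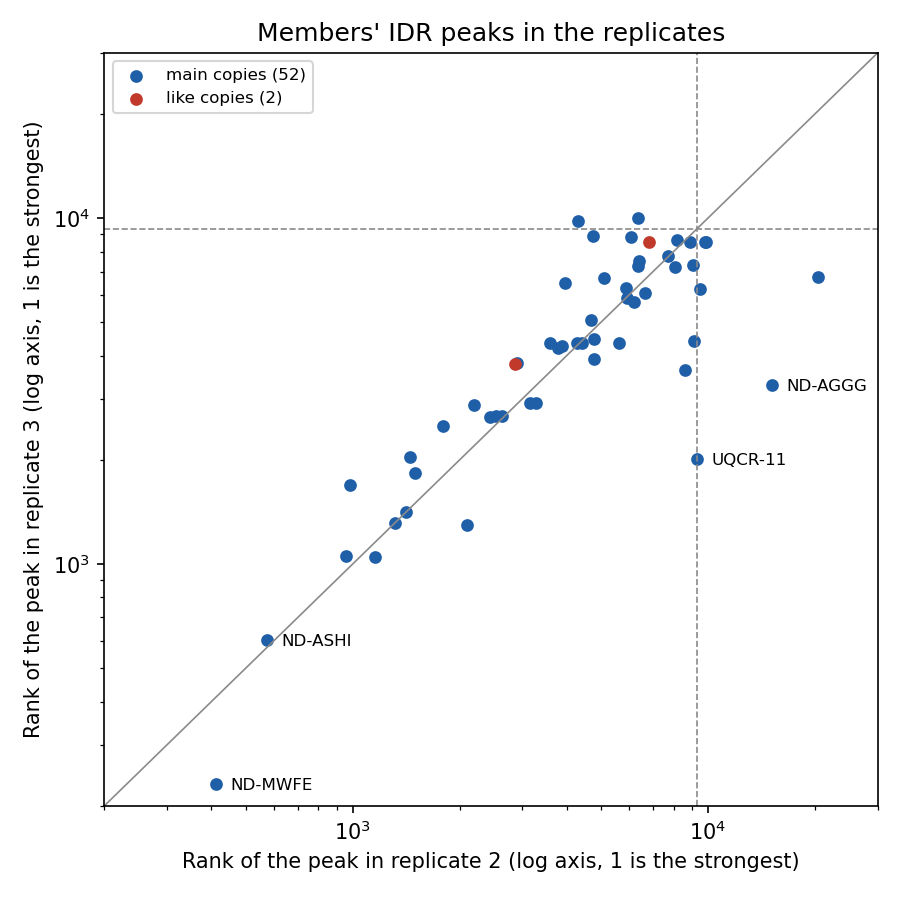
Rank of each of the 54 genes' IDR peaks in replicate 2 (x axis) and replicate 3 (y axis), both log axes on which 1 is the strongest; the solid line marks equal ranks and the dashed lines rank 9299. Most points follow the line, while ND-B14.5B (20401 and 6745), which is not named in the plot, ND-AGGG (15103 and 3289) and UQCR-11 (9311 and 2010) lie well below it.

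Few like copies had an IDR peak, 2 of 24 (8.33%) beside 43.9% of all protein-coding genes, and the numbers per complex are small. IDR summits were found at 0 of 6 in complex I, 0 of 3 in complex II, 1 of 3 in complex III, 1 of 8 in complex IV and 0 of 4 in complex V. Set against their main copies, 20 of the 24 pairs had a summit at the main copy alone, 1 at both, 1 at the like copy alone and 2 at neither. The main copies include 3 genes with other names: levy (857, at -158), cype (480, at -333) and sun (172, at -35), which encode subunits of complexes IV and V. The summits of levy and cype were nearer to starts of wmd and Ncoa6. The nearest IDR summit lay a median of 7288 bp from like copies, 75.0 bp from main copies and 1946 bp from all protein-coding genes.

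In complex I no like copy had a pooled summit. ND-51 had a signal of 875, while ND-51L1 and ND-51L2 had no pooled summit, and replicate 2 alone gave ND-51L1 a weak summit of 27.8 at -541. ND-24 had 708 and ND-24L none. ND-20 had 360 and ND-20L none, and ND-B14.5A had 207 and ND-B14.5AL none. Neither ND-49 nor ND-49L had a summit in any list.

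In complexes II and III 3 of the 6 like copies had a pooled summit, beside 61.9% of all protein-coding genes. SdhC had 513 and SdhCL, 94143 bp away on the same arm, had none. SdhAL had a pooled summit of 38.2 at -599 with a q-value of 0.61, and SdhBL one of 136 at -815. UQCR-11L and UQCR-14L had none in the pooled list, and replicate 2 alone gave UQCR-11L 23.3 at 445. UQCR-6.4L (3L, 16566750 to 16567300, plus strand) was the 1 like copy with an IDR summit where the main copy had none. It had an IDR summit of 196 at -414, with 95.8 (rank 6829) in replicate 2 and 111 (rank 8506) in replicate 3, beside the pooled 147 of UQCR-6.4.

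In complex IV the other like copy with an IDR summit was COX7AL2 (2L, 2192525 to 2197912, minus strand). It had 422 at 519, inside the gene, with 175 (rank 2861) in replicate 2 and 248 (rank 3780) in replicate 3, beside 237 at COX7A. The COX7A summit was 1 bp from a start of Arl2. Of the 56 genes, COX7AL2 had its closest summit farthest from a start. Just outside the 1000 bp limit, the nearest IDR summit of ND-B14 lay at -1212 with a signal of 182. COX4L (127 at 497), COX7AL (147 at 713) and COX7CL (118 at -914) had pooled summits only, and COX5BL, COX6AL, COX6AL2 and COX6CL had none.

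COX5BL shows how near a like copy can lie to a peak without one of its own. Its start is 1631 bp from that of COX5B on the same strand of 2L, and the peak of 503 counted for COX5B is 1832 bp upstream of it. The summit of that peak lies between COX5B and IFT52 and is nearer to IFT52. COX7CL and COX7AL also adjoin their main copies, with starts 1995 bp and 2770 bp apart. In complex V, ATPsynepsilonL had a pooled summit of 113 at -179, and ATPsynCF6L, ATPsynGL and ATPsynbetaL had none. Their main copies ATPsynCF6, ATPsynG and ATPsynbeta had 465, 254 and 316, of which the summits of ATPsynCF6 and ATPsynbeta were nearer to a neighbouring gene.

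Reads that match a like copy and its main copy equally well could be lost or misplaced, and how the authors treated them is not given in the sources used here. Within 500 bp of the starts, the longest run of bases that a pair shared ranged from 9 to 20 bp, with a median of 11.5 bp. The 120 bp from -100 around the start are shown for a pair that differs in its peaks on different chromosomes and for the neighbouring pair on 2L. They are 5' to 3' on the gene's strand in dm6, and capitals mark GGTCACAC.
ND-24, chrX:17631989-17632108, plus strand: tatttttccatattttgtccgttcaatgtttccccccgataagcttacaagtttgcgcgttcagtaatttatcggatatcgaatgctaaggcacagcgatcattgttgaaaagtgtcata
ND-24L, chr3L:17320792-17320911, minus strand: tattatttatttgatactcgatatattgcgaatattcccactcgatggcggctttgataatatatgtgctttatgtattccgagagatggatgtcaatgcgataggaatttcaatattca
COX5B, chr2L:6557700-6557819, plus strand: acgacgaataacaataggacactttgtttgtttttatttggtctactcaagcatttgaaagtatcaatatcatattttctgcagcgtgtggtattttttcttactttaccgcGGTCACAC
COX5BL, chr2L:6559331-6559450, plus strand: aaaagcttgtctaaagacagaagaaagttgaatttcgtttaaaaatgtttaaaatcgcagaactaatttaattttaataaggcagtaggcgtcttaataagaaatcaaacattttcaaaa
The COX5B window ends in GGTCACAC, and the other 3 windows hold none of the sequences searched.

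Summits lay just upstream of the starts. The strongest summit of the 56 genes had a median position of -66.5 bp, with quartiles of -132 and -23.5 bp, beside -129 bp (-241 and -45.0) for all protein-coding genes with an IDR summit. It lay upstream in 83.9% of the 56 and within 150 bp of a start in 71.4%, beside 86.4% and 50.9% of all genes. Cytoplasmic ribosomal protein genes had a median of -80.0 bp, and mitochondrial ones -130 bp. With the closest summit of each gene in place of the strongest, 46 of 56 (82.1%) lay within 150 bp, beside 57.7% of all genes under the same rule. The peaks had a median width of 432 bp, beside 428 bp in the whole IDR list.

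**Figure D4:**
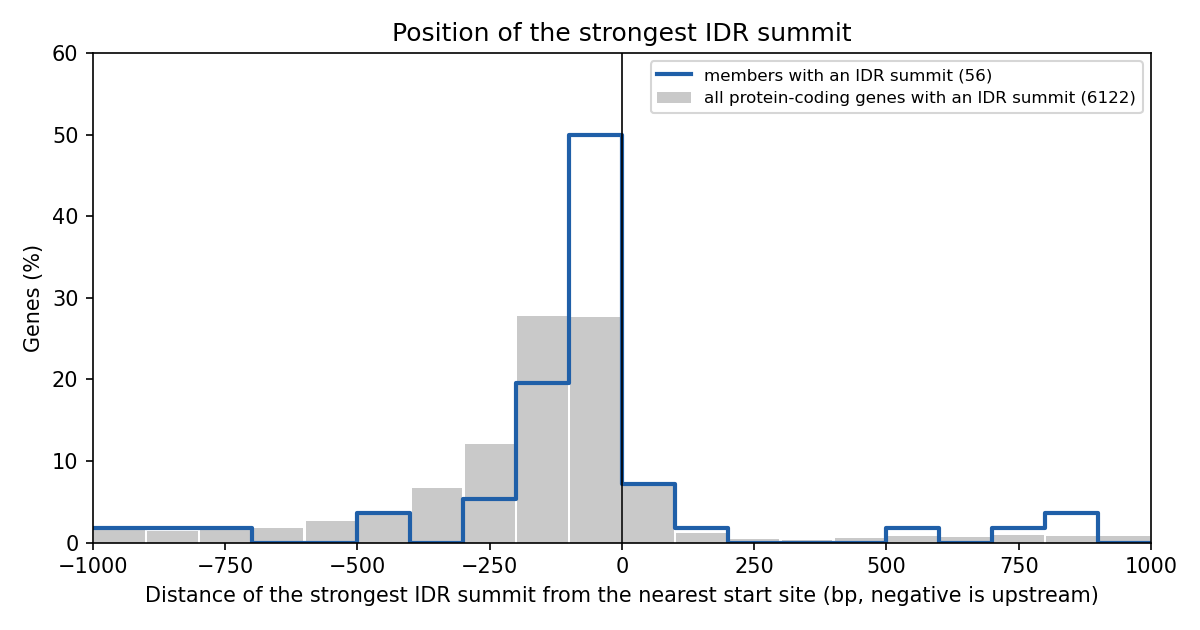
Distance of the strongest IDR summit from the nearest start site of the gene, in bins of 100 bp with negative values upstream; grey bars are the 6122 protein-coding genes with an IDR summit and the blue line the 56 oxidative phosphorylation genes, each in percent of its genes. The bin from -100 to 0 bp holds 28 of the 56 genes and 27.6% of all genes.

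Many of these genes share a promoter region with a neighbour. A protein-coding gene that starts within 1000 bp upstream on the other strand was present for 40 of the 64 main copies (62.5%), for 4 of the 24 like copies and for 36.2% of all protein-coding genes. With such a partner, 34 of 40 main copies (85.0%) had an IDR summit, beside 73.0% of all genes with a partner. Without one, 20 of 24 main copies (83.3%) had a summit, beside 27.3% of all genes without a partner. Mitochondrial ribosomal protein genes without a partner had a summit in 5 of 15 cases, and cytoplasmic ones in 31 of 33.

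The peaks of main copies with a partner were stronger in the median (419) than those without (290), as over all genes (450 and 357). Of the 34 with a partner, 29 had the strongest summit between the starts of the pair, a share (85.3%) near that of all genes with a partner (87.0%). The median position of the 34 was -94.5 bp, beside -28.5 bp for the 20 without, and over all genes it was -133 bp with a partner and -116 bp without. A summit between a pair is counted for both genes and cannot be assigned to either.

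**Figure D5:**
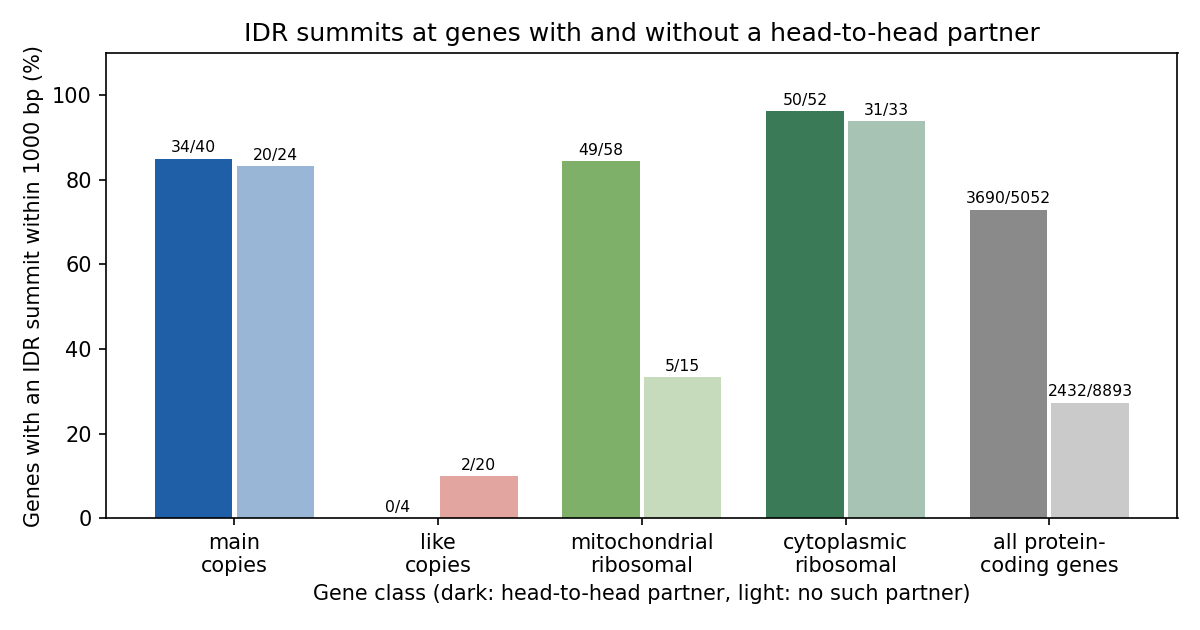
Share of genes, in percent, with an IDR summit within 1000 bp, by gene class; dark bars are genes with a head-to-head partner and light bars genes without, with counts above each bar. Main copies stand at 85.0% and 83.3%, all protein-coding genes at 73.0% and 27.3%.

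For 17 of the 56 genes the strongest summit lay nearer to a start of another gene, and for 13 of these that gene was the head-to-head partner. The 5 strongest were ND-MWFE (nearer TppII), ND-ASHI (Fum1), ND-42 (774, nearer Cchl, the cytochrome c heme lyase gene), COX5A (glo) and ATPsynE (spn-B). ATPsynD shared its upstream region with mRpL55, a mitochondrial ribosomal protein gene 95 bp away. When a summit was given only to the gene with the nearest start, 44 main copies (68.8%) and both like copies kept one, beside 32.3% of all genes. The share of mitochondrial ribosomal protein genes was then 39.7%, and that of cytoplasmic ones 87.1%.

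Promoter sequences were searched on both strands for 6 sequences, from 250 bp upstream to 50 bp downstream of 1 start per gene. This was the canonical start of the annotation, which need not be the start nearest the summit. GGTCACAC, the core of the promoter element Motif 1, stood in 16 of the 64 main copies (25.0%), in 1 of 24 like copies (COX7AL) and in 7.54% of all protein-coding promoters. TATCGATA, the DNA replication-related element (DRE), stood in 8 main copies (12.5%), in no like copy and in 8.94% of all. Among genes with an IDR summit the order turned for the DRE, with 7 of 54 main copies and 15.4% of all, while the Motif 1 core stood in 25.9% and 13.5%. In mitochondrial and cytoplasmic ribosomal protein genes the DRE stood in 20.5% and 29.4%, and the Motif 1 core in 11.0% and 14.1%. TTANNTAA stood in 34.4% of main copies, 20.8% of like copies and 23.2% of all. TATAAA, the letters of a TATA box, stood in 54.7%, 37.5% and 45.3%, wherever it lay in the window. CACGTG, an E-box, stood in 3.12% of main copies, 8.33% of like copies and 4.26% of all. GAGAGAG, the GAGA sequence, stood in no main copy and in 6.20% of all. TTANNTAA and TATAAA can overlap. The median GC content of the windows was 34.7% in main copies, 33.7% in like copies and 38.0% over all genes, and its part in these shares was not tested.

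Windows of 121 bp around the strongest summits are shown for 5 main copies with the Motif 1 core there and for both with a DRE there. The core at UQCR-C2 lay upstream of the start nearest its summit. The promoter window searched was set by another start of this gene and did not reach that core. UQCR-C2 is therefore not in the promoter counts of the core. Capitals mark GGTCACAC or its reverse complement GTGTGACC in the first 5 lines, TATCGATA in the last pair, and TTANNTAA in ND-13A. They are 5' to 3' on the gene's strand in dm6.
ND-13A, chr2L:5100175-5100295, minus strand: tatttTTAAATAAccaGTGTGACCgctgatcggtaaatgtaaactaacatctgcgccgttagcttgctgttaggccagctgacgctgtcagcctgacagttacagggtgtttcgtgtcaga
ND-PDSW, chr2L:3466085-3466205, plus strand: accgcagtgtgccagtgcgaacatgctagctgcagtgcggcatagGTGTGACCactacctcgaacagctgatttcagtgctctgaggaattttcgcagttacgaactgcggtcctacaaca
UQCR-C2, chr3L:16584194-16584314, plus strand: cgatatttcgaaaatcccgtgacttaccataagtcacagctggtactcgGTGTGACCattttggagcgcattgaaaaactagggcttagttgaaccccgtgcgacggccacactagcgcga
ATPsynD, chr3R:19094888-19095008, plus strand: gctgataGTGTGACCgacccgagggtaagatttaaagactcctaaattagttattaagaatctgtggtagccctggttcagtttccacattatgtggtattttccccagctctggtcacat
COX4, chr2L:19958647-19958767, plus strand: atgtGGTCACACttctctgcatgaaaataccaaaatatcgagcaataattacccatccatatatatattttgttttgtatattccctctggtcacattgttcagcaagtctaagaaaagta
UQCR-14, chrX:16286216-16286336, plus strand: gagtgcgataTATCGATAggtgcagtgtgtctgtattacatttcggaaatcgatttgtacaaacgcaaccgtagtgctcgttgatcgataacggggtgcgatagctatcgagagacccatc
ND-B14.5A, chrX:2172436-2172556, plus strand: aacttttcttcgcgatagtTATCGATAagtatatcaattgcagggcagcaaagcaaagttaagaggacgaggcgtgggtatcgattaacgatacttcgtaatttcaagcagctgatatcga
The Motif 1 core was in 6 of the 54 summit windows of main copies (11.1%), beside 4.95% of the 4204 summits of all protein-coding genes. A DRE was in 2 (3.70%), beside 7.49%.

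Main copies with these elements had lower median signals than those without, a difference given without a test. The 14 main copies with an IDR summit and the Motif 1 core in the promoter window had a median signal of 306. The 40 without the core there had 341. The 7 with a DRE had 243, and the 47 without had 339. Over all genes the medians were 395 with the core and 408 without, and 398 with a DRE and 408 without. The 17 matches of the core in main copies lay between -237 and 33 bp of the canonical start, with a median of -15.0 bp. Summit positions are from the nearest start of the gene instead, so core and summit positions cannot be compared directly where these starts differ. At COX4 the core was at -181 from the canonical start, while the summit position of -6 was taken from another start.

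Genes of the same pathway under other names had peaks at a share close to that of the main copies. The list was taken from known functions, and 37 of its genes were in the annotation. Of these 31 (83.8%) had an IDR summit and 36 a pooled one, beside 43.9% and 61.9% of all protein-coding genes. The 7 subunits with other names all had one, led by blw, the ATP synthase alpha subunit (873), and levy (857). Both cytochrome c genes had strong peaks. That of Cyt-c-p, the main form, had 1391 at 944, and a weaker summit of this gene had 520 at -110. That of Cyt-c-d, the form needed in the male germ line, had 2222 at 381, nearer to CG31808.

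In the smaller groups, to be read beside the same 43.9% of all genes, assembly factors had an IDR summit in 4 of 6 cases, led by CIA30 (2568), which acts on complex I, and Cox17 (972), a copper carrier for complex IV. Scox and Cox11, which also serve complex IV, had pooled summits of 103 and 81.4. Genes for the mitochondrial DNA and its regulators had one in 7 of 9 cases, led by mtSSB (565), the single-stranded DNA-binding protein, and PolG2 (485), the accessory subunit of the DNA polymerase. The transcription factor gene mtTFB2 (76.5) and the polymerase gene PolG1 (53.2) had pooled summits only. Genes of the citrate cycle and pyruvate dehydrogenase had one in 11 of 13 cases, led by Idh3g (2128), a subunit of isocitrate dehydrogenase, and Fum1 (1210). Pdha, a pyruvate dehydrogenase subunit gene, had a pooled summit of 95.3. Idh3b, another isocitrate dehydrogenase gene, had none in the pooled list, but replicate 3 alone gave it 245 at -77 (rank 3829).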

How the data were processed

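Peak lists in narrowPeak format on assembly dm6 were deposited for biological replicate 2, replicate 3, their pool and an IDR-thresholded set. Peaks were called on the alignments together with 1 further file, per the deposited text notes. Aligner, peak caller, settings and IDR cutoff are not given in the sources used here. Signal values (column 7) were deposited by the authors on the scale of their peak caller and were compared only within a list. The deposited −log10 q-value (column 9) was at its maximum in all 56 peaks used and served only for 1 alternative. It gives no read depth.

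Summits (start plus offset, given 1-based) were joined to transcription start sites of Ensembl release 115 (BDGP 6.54). Sequence came from the RefSeq copy of the assembly, in which 99.8% of 30593 annotated start codons read ATG. Python 3.11.15, pandas 2.3.3, numpy 2.4.6, scipy 1.17.1 and matplotlib 3.10.9 were used, and the assignment was tested on simulated data, in which all 200 planted summits were found. The strongest summit within 1000 bp gave a gene's strength and position.

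The genes, lists and sequences were chosen with earlier results of these data known, so no test was run and counts stand beside those of all protein-coding genes. The genes named were all like copies with their main copies and, in each complex, the 4 main copies with the strongest IDR summit and every one without. Also named were those just inside and outside the distance, the 5 strongest whose summit lay nearer to another gene, and of each list of other genes the 2 strongest and all without. A few others were named after their values were seen: the core subunits of complex I, ND-AGGG, ND-B14.5B, ATPsynD, ATPsynbeta and the genes whose sequences are shown. Alternatives were distances of 500 and 250 bp, IDR peaks above the median signal, the pooled list, its peaks with q up to 0.05, each replicate alone, peaks that contain a start, the 5'-most start and the nearest gene only. Replicates are separate biosamples of 1 line, per the labels.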

Additional observations from a re-analysis of the deposited data

How the results depend on the processing

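Main copies had a summit more often than all protein-coding genes, and like copies less often, under all 10 alternatives. With IDR peaks above the list's median signal 29 of the 88 genes and 28 main copies had one. Like copies with a summit numbered 1 within 500 bp and with these stronger peaks, 0 within 250 bp or where a peak had to contain a start, 8 with all pooled peaks and 7 with pooled q up to 0.05. The 2 like copies with an IDR summit thus depend on the distance. Without a replicate the 88 genes numbered 53 to 54 and like copies 2 to 3. Leaving out replicate 3 lost ND-AGGG, ND-B17, SdhB, SdhD and UQCR-11 and gained SdhBL, UQCR-6.4 and COX7C, so complex II then had 2 main copies. Leaving out replicate 2 lost ND-13A, UQCR-C1 and COX8. The median strength was 503 with the stronger peaks, 278 with all pooled peaks, 283 with pooled q up to 0.05, 306 with the nearest gene only, and 131 to 220 in single replicates, whose scales differ. The median position was -52.0 bp within 250 bp and with the stronger peaks, -51.0 with all pooled peaks and where a peak contained a start, -45.5 with pooled q up to 0.05, -54.0 with the 5'-most start, -35.0 with the nearest gene only and -65.0 to -48.0 without a replicate. Summits were found under all 10 alternatives at 17 main copies and under none at 16 like copies and ND-49. The matching counts over all protein-coding genes were not made, so these have no background share beside them. The causes of these shifts were not tested. No paired analysis was possible because there is 1 group. Depth was unknown, so a gene without a summit is not shown to lack Nemo.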
